A study of Mus musculus with 8 samples.

Results

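Cyclin-dependent kinase inhibitors are proteins that hold back the cell cycle, and their messenger RNAs were followed here in mouse small intestinal organoids. The 7 genes are Cdkn1a, Cdkn1b, Cdkn1c, Cdkn2a, Cdkn2b, Cdkn2c and Cdkn2d, out of 18749 genes with a symbol on the array. Array probes were assigned to them through the RefSeq accession that the array files give for each probe, and 8 of 41174 probes matched. Every matching probe is described. Organoids are epithelial cultures that grow from intestinal stem cells in a gel. Both organoid lines were wild-type and independently established, and each was seeded in Matrigel and cultured for 6 days under 4 conditions. These were control medium, 3 µM CHIR99021, 1 mM valproic acid (VPA), and both compounds at those doses. CHIR99021 is an inhibitor of the kinase GSK3, which activates Wnt signalling, and VPA is an inhibitor of histone deacetylases. Each of the 8 arrays carried Cy5-labelled material of 1 sample beside Cy3-labelled material of control organoids of the same line, so that a control array held control material in both dyes.

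The proteins fall into 2 families. The CIP/KIP proteins, p21 from Cdkn1a, p27 from Cdkn1b and p57 from Cdkn1c, bind complexes of cyclins with their kinases. The INK4 proteins, p16 from Cdkn2a, p15 from Cdkn2b, p18 from Cdkn2c and p19 from Cdkn2d, bind the kinases CDK4 and CDK6 and keep cyclin D off them. CDK4 and CDK6 otherwise phosphorylate the retinoblastoma protein and release E2F factors, which start DNA replication. In the intestinal crypt, cells divide at the base and stop dividing as they move toward the villus, and p21 and p27 are known from cells that have left the cycle.

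The genes that passed the test were Cdkn2b, which was lower with CHIR99021, and Cdkn2d, which was higher with VPA. Cdkn1a is shown beside them because the lines went opposite ways there. Their promoter sequences are set out together so that the genes can be compared base by base. RefSeq promoter sequences of build GRCm38.p6 were available for 6 of the 7 genes, in 9 windows that each covered the 250 bases before an annotated start. The Cdkn2b window is chr4:89311033-89311282 on the minus strand, the Cdkn2d window is chr9:21291210-21291459 on the minus strand, and the Cdkn1a window, of its start 2, is chr17:29093519-29093768 on the plus strand. Capitals mark each GC box, searched as GGGCGG or its reverse complement CCGCCC.
Cdkn2b: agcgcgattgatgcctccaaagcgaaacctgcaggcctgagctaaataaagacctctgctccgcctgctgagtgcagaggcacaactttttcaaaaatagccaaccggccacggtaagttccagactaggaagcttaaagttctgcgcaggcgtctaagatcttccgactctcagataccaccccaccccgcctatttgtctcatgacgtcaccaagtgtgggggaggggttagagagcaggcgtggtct
Cdkn2d: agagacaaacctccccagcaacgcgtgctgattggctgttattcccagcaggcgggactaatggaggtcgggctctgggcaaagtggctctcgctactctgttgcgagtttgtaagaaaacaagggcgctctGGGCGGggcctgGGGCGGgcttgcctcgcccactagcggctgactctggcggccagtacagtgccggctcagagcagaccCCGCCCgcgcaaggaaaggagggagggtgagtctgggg
Cdkn1a: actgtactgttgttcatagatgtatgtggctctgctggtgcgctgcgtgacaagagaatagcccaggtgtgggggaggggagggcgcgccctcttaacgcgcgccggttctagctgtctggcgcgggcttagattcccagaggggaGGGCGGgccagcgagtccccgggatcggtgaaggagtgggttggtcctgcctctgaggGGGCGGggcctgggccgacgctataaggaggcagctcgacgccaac
The Cdkn2d window held 3 GC boxes, the Cdkn1a window of start 2 held 2, and the Cdkn2b window held 0. A GC box was present in 32.7% of 32851 windows of the same length over all genes. The nearest GC box lay 38 bases before the start of Cdkn2d and 46 bases before start 2 of Cdkn1a. The other Cdkn1a window, of start 1, held 0. Among the remaining genes, Cdkn2c held 3 at its start 1 and 0 at its start 2. Cdkn2a held 2 at its start 1 and 0 at its start 2, and Cdkn1b held 1. The TCF/LEF core letters CTTTGA and CTTTGT, read on both strands, occurred in 13.8% and 16.5% of all windows and had 0 matches in the Cdkn2b, Cdkn2d and Cdkn1a windows. The Cdkn2b window had 53.6% G or C and the Cdkn2d window had 63.6%, against a median of 52.4% over all windows. These letter matches describe the sequence and do not show that a factor binds.

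Of the 8 arrays, each had 60.6% to 64.6% of its spots well above background in Cy5, and no probe of the 7 genes was saturated. All 8 epithelial marker genes, Epcam and Cdh1 among them, were well above background in the control organoids. Markers of other tissues were partly detected. In control organoids 4 of 8 mesenchymal markers and 2 of 6 blood and immune markers were above background, and on some array 7 of 8 and 6 of 6 were, with Dcn the mesenchymal exception. Of the endothelial and nerve markers, the 4 nerve genes were above background in control, and the endothelial genes Cdh5, Kdr, Pecam1 and Tek were above background on no array. The test covered 19254 genes, of which 6 of the 7 inhibitors were part. Cdkn2a was too dim to enter. Values are log2 ratios of Cy5 over Cy3 after normalisation. A change is the mean ratio of a treated group minus that of the control group, given with its standard error (SE), and the adjusted p comes from limma with Benjamini-Hochberg adjustment over all genes, at a threshold of 0.05. The comparisons against control share the same control arrays. Each group had n = 2 arrays, 1 for each line, so the number of arrays limits the precision. Line 1 and line 2 were hybridised on separate slides, so line and slide cannot be told apart. The p-values rest on the spread between these 2 lines, which limma moderates with the spread of all genes. The line was not a term in the fit. As the RNA came from whole organoids, fewer cells of a type and less RNA per cell cannot be told apart.

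**Figure D1:**
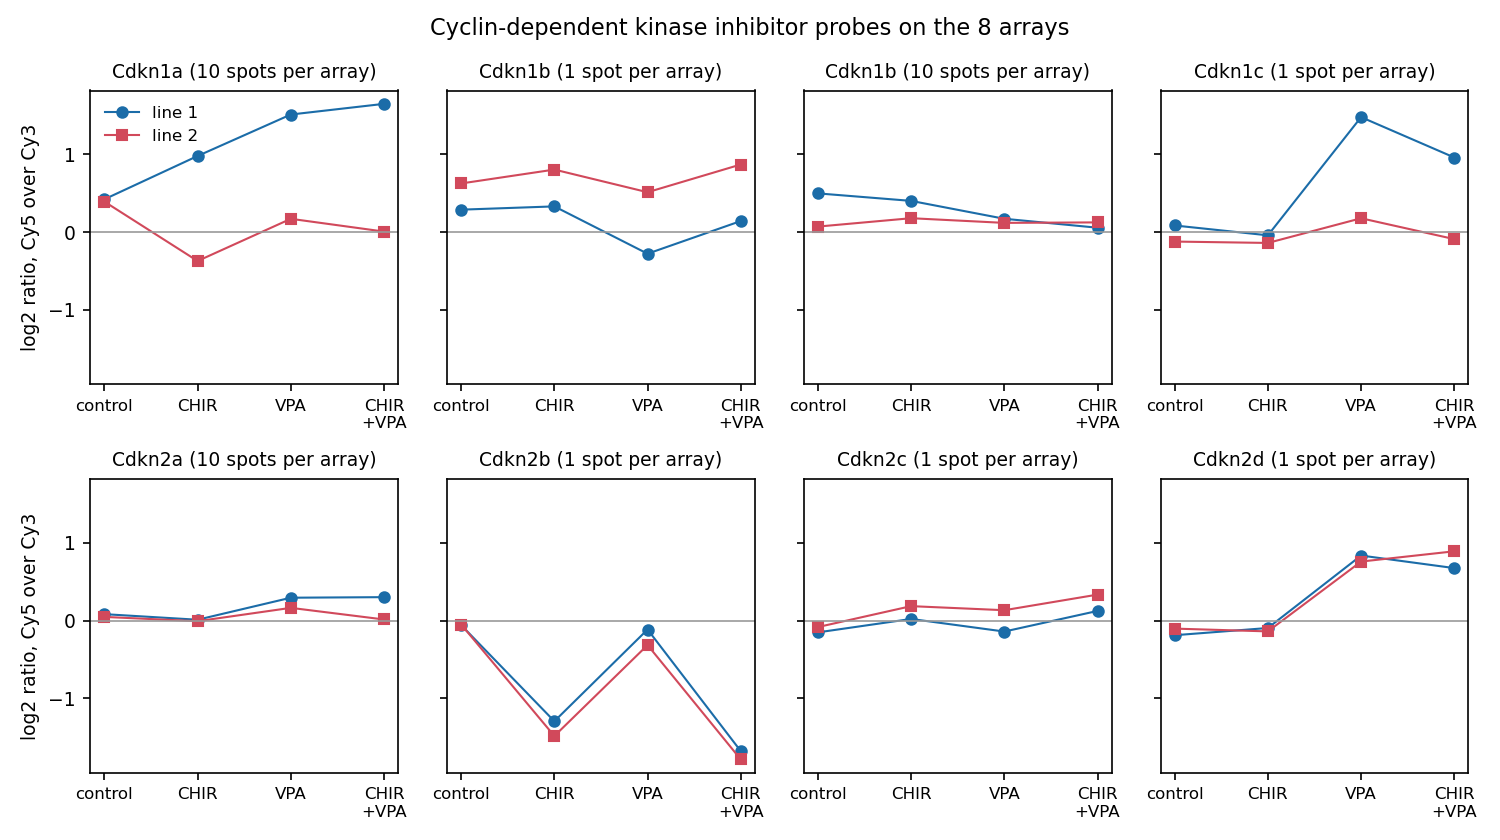
Log2 ratio of Cy5 over Cy3 for each of the 8 probes (vertical axis) in the 4 conditions (horizontal axis), with circles for line 1 and squares for line 2. Cdkn2b fell with CHIR99021 and with both compounds in each line, Cdkn2d was higher in both VPA conditions, and the lines of Cdkn1a and Cdkn1c lay apart there.

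Among the INK4 genes, Cdkn2b was lower wherever CHIR99021 was present. Its log2 ratio was -0.06 in line 1 and -0.05 in line 2 under control conditions, and -1.29 and -1.48 with CHIR99021. With VPA the ratios were -0.12 and -0.32, and with both compounds they were -1.68 and -1.78. All 4 arrays with CHIR99021 lay below all 4 arrays without it. CHIR99021 lowered Cdkn2b against control by a log2 change of -1.33 (SE 0.11, n = 2 lines, limma adjusted p = 0.0135), a 2.52-fold fall with a 95% interval of 2.09 to 3.04. It was the only inhibitor of the 6 tested to pass in that comparison, in which 1.12% of all genes passed, 0.114% as higher and 1.01% as lower. Added to VPA, CHIR99021 lowered Cdkn2b with a log2 change of -1.52 (SE 0.11, adjusted p = 0.00959), which is 2.86-fold. Again 1 of the 6 inhibitors passed, beside 1.12% of all genes, 0.0883% as higher and 1.03% as lower. With both compounds the log2 change of Cdkn2b from control was -1.68 (SE 0.11, adjusted p = 0.000713), which is 3.19-fold.

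VPA alone gave a Cdkn2b change of -0.16 with a 95% interval of -0.43 to 0.11 (adjusted p = 0.434). Adding VPA to CHIR99021 gave -0.34 (SE 0.11), with -0.38 in line 1 and -0.30 in line 2. That difference did not pass (adjusted p = 0.114), but it did with the line as a replicate block (adjusted p = 0.0473). The departure from additivity of the compounds on the log2 scale was -0.18 for Cdkn2b (SE 0.16, 95% interval -0.56 to 0.20), and it passed for 0 of the 6 inhibitors and 0% of all genes (511 genes had an unadjusted p under 0.05).

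The CHIR99021 call on Cdkn2b depended on single arrays. Its adjusted p was 0.212 without the control array of line 1, 0.234 without that of line 2, 0.0568 without the CHIR99021 array of line 1 and 0.125 without that of line 2, while the log2 change stayed between -1.43 and -1.24. The call was also lost with the background model fitted on all spots (-1.18, adjusted p = 0.133), with marked spots kept (-1.18, adjusted p = 0.134) and in the Cy5 channel alone (-1.17, adjusted p = 0.617). For CHIR99021 added to VPA, the adjusted p was 0.0668 without the control array of line 1 or that of line 2, 0.154 with only these groups fitted and 0.370 in Cy5 alone. The call for both compounds against control was lost in Cy5 alone (adjusted p = 0.101) and held in 20 of 21 alternatives.

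The enterocyte marker genes also had lower values in the samples with CHIR99021. The summed normalised Cy5 brightness of these 8 genes, which include Alpi, Fabp1 and Sis and were all above background in control organoids, was 244481 to 269617 in control. It was 92022 to 94373 with CHIR99021, 359524 to 373654 with VPA and 51965 to 89788 with both compounds. Their median log2 change was -1.88 with CHIR99021, with 1 of 8 passing as lower, and -2.26 with both, with 4 passing as lower. With VPA alone the median was -0.17, where Cdkn2b had a change of -0.16. There 4 of 8 markers were positive and 1 passed as lower, while the summed brightness lay above control. The part of these enterocyte marker shifts in the Cdkn2b result was not tested.

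Cdkn2d followed the other compound. Its log2 ratio was -0.19 in line 1 and -0.10 in line 2 in control organoids, and -0.10 and -0.14 with CHIR99021. With VPA the ratios were 0.83 and 0.76, and with both compounds they were 0.67 and 0.89. All 4 arrays with VPA lay above all 4 arrays without it. VPA raised Cdkn2d against control by 0.94 (SE 0.10, n = 2 lines, adjusted p = 0.0046), a 1.92-fold rise with a 95% interval of 1.62 to 2.28. It was the only one of the 6 inhibitors to pass with VPA, and 10.9% of all genes passed, 6.58% as higher and 4.27% as lower. With both compounds the rise against control was 0.93 (SE 0.10, adjusted p = 0.00301), which is 1.90-fold. In that comparison 2 of the 6 inhibitors passed, Cdkn2b lower and Cdkn2d higher, beside 15.5% of all genes, 7.09% as lower and 8.43% as higher. Added to CHIR99021, VPA raised Cdkn2d by 0.90 (SE 0.10, adjusted p = 0.00591), or 1.87-fold, and Cdkn2d alone of the 6 passed beside 10% of all genes, 6.21% as higher and 3.81% as lower.

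CHIR99021 alone gave Cdkn2d a change of 0.03 with a 95% interval of -0.22 to 0.28 (adjusted p = 0.958). Added to VPA it gave -0.01, with an interval of -0.26 to 0.23 (adjusted p = 0.973). The departure from additivity was -0.04 (SE 0.15, interval -0.39 to 0.31). The sign of each of these small values turned under other processing. The rise with both compounds against control passed in 21 of 21 alternatives. The VPA call was lost without the control array of line 1 (adjusted p = 0.0706) or of line 2 (adjusted p = 0.0569), and the call for VPA added to CHIR99021 was lost without the CHIR99021 array of line 2 (adjusted p = 0.0543) or with only these groups fitted (adjusted p = 0.057).

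Markers of goblet and other secretory cells also had lower values in the samples with VPA. Of 7 goblet cell genes tested, Tff3 and Clca1 among them and all above background in control, 0 passed with CHIR99021, 5 passed as lower with VPA and 7 with both compounds. Their median log2 change was -0.88, -1.28 and -2.79. With CHIR99021, 9995 of all 19254 genes were positive and Cdkn2d had a change of 0.03, while all 7 goblet cell genes were already negative. Their summed Cy5 brightness was 107106 to 162302 in control, 73099 to 110440 with CHIR99021, 51285 to 96692 with VPA and 21157 to 37387 with both. With VPA, the median change was -2.24 over 6 enteroendocrine genes, -0.89 over 6 tuft cell genes and -0.61 over 7 Paneth cell genes, with 0 positive in each list and 2, 1 and 1 passing as lower. Over all genes, 9608 of 19254 were positive with VPA. With CHIR99021 the medians of the enteroendocrine, tuft cell and Paneth cell genes were -0.26, -0.68 and 0.26. There 2 of 6, 0 of 6 and 5 of 7 genes were positive. In control organoids 6 of 8 enteroendocrine, 6 of 7 tuft cell and 7 of 7 Paneth cell genes on the array were above background. The summed brightness of the enteroendocrine genes was between 9274 and 130770 in control, 3028 and 22927 with VPA and 2746 and 8694 with both compounds. For the tuft cell genes it was between 1248 and 2072 in control, 738 and 822 with VPA and 547 and 564 with both. For the Paneth cell genes it was between 67868 and 228306 in control, 35361 and 170769 with VPA and 39626 and 75575 with both. With CHIR99021 these sums were between 7689 and 115284, 913 and 1104, and 106371 and 262011 in the same order. The control and VPA ranges overlapped for the enteroendocrine and Paneth cell genes, whose sums differed between the lines. With VPA the enteroendocrine sum went from 130770 to 22927 in line 1 and from 9274 to 3028 in line 2. The Paneth cell sum went from 228306 to 170769 in line 1 and from 67868 to 35361 in line 2. The part of these shifts in the Cdkn2d result was not tested.

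Cdkn2c gave small values. Its log2 ratio was -0.15 in line 1 and -0.08 in line 2 in control, and 0.02 and 0.18 with CHIR99021. It was -0.14 and 0.13 with VPA alone and 0.12 and 0.33 when the compounds were combined. The VPA arrays lay on both sides of 0. With both compounds the change was 0.35 (SE 0.13, adjusted p = 0.134), and it passed with the line as a replicate block (adjusted p = 0.0326). CHIR99021 gave 0.22 (SE 0.13, adjusted p = 0.571) and VPA gave 0.11 (SE 0.13, adjusted p = 0.657).

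Cdkn2a, whose locus also encodes the protein p19ARF from another reading frame, was near the detection limit. Its probe was printed 10 times on each array. Among the spots used, the number well above background in Cy5 was 0 on both control arrays and on both CHIR99021 arrays. It was 8 on the VPA array of line 1, 7 on the array of line 1 with both compounds, and 0 on the arrays of line 2 in the same conditions. On the VPA array of line 2, 2 of the 10 spots were left out as marked, and both of these were well above background in Cy5. On the other arrays no marked spot was. In Cy3, which held control material, the number among the spots used was 0 on all 8 arrays. The mean log2 ratio over the spots was 0.08 and 0.05 in control, and 0.01 and -0.01 with CHIR99021, in line 1 and line 2. It was 0.29 and 0.16 with VPA alone and 0.30 and 0.01 when the compounds were combined. Spots of 1 array differed with an SD of 0.0646 to 0.151. No group had used spots above background in both lines, so no fold is given.

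**Figure D2:**
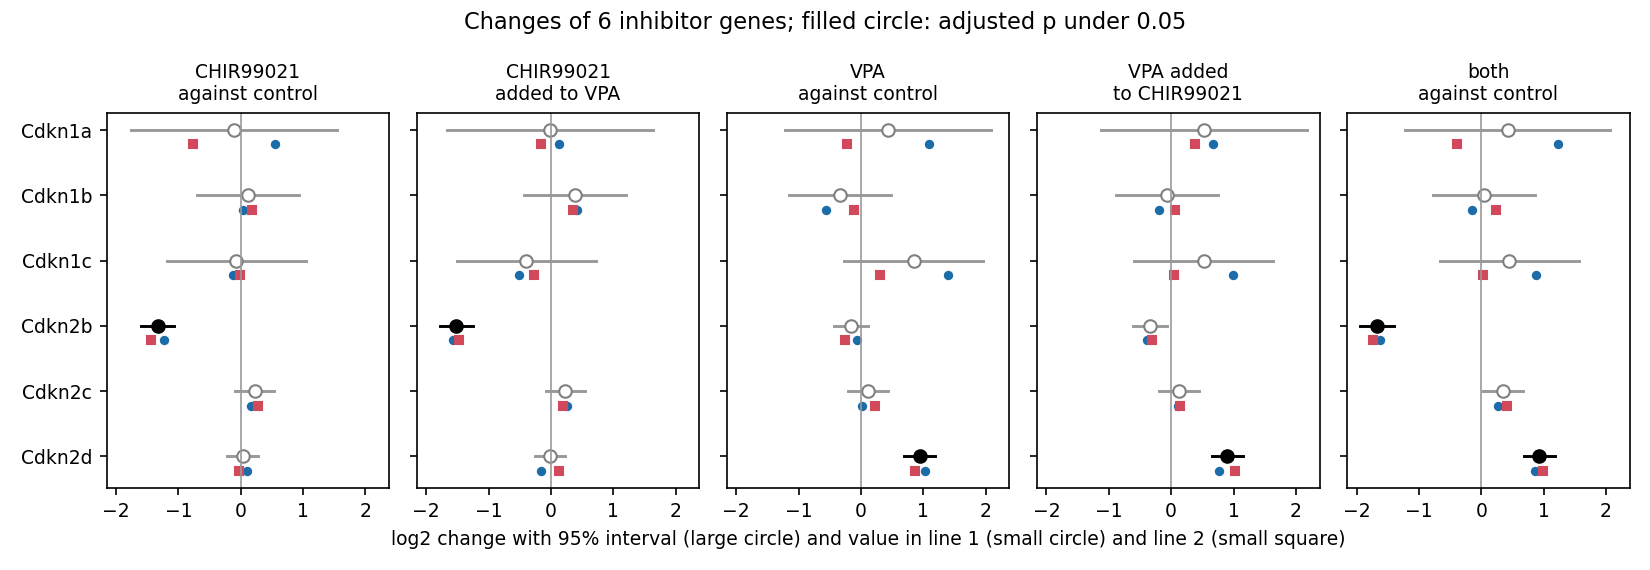
Log2 change (horizontal axis) of the 6 inhibitor genes tested, in 5 comparisons, with the 95% interval as a line around a large circle, filled where the adjusted p was under 0.05. Small circles are line 1 and small squares are line 2. Only Cdkn2b and Cdkn2d have filled circles, and the intervals of Cdkn1a are the widest of the 6.

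In the CIP/KIP family no gene passed in any comparison. Of all genes, 1.12% passed with CHIR99021, 10.9% with VPA and 15.5% with both compounds. The share was 10% for VPA added to CHIR99021 and 1.12% for CHIR99021 added to VPA. With so few genes, that count does not set the family apart from all genes. The organoid lines differed in these genes. Cdkn1a had a log2 ratio of 0.42 in line 1 and 0.39 in line 2 under control conditions. With CHIR99021 the ratios were 0.98 and -0.37, with VPA 1.51 and 0.17, and with both compounds 1.65 and 0.01. Line 1 was above its control in every treated sample and line 2 was below its control in every treated sample. The change from control with CHIR99021 was 0.56 in line 1 and -0.76 in line 2. With VPA alone it was 1.09 and -0.22, and for the combination it was 1.23 and -0.38. The mean changes were -0.10 (SE 0.69, adjusted p = 0.98), 0.43 (SE 0.69, adjusted p = 0.759) and 0.42 (SE 0.69, adjusted p = 0.746). The Cdkn1a probe was printed 10 times, and its spots differed with an SD of 0.0193 to 0.0855 within an array. On the array of line 2 with both compounds, 6 of the 10 spots were used.

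**Figure D3:**
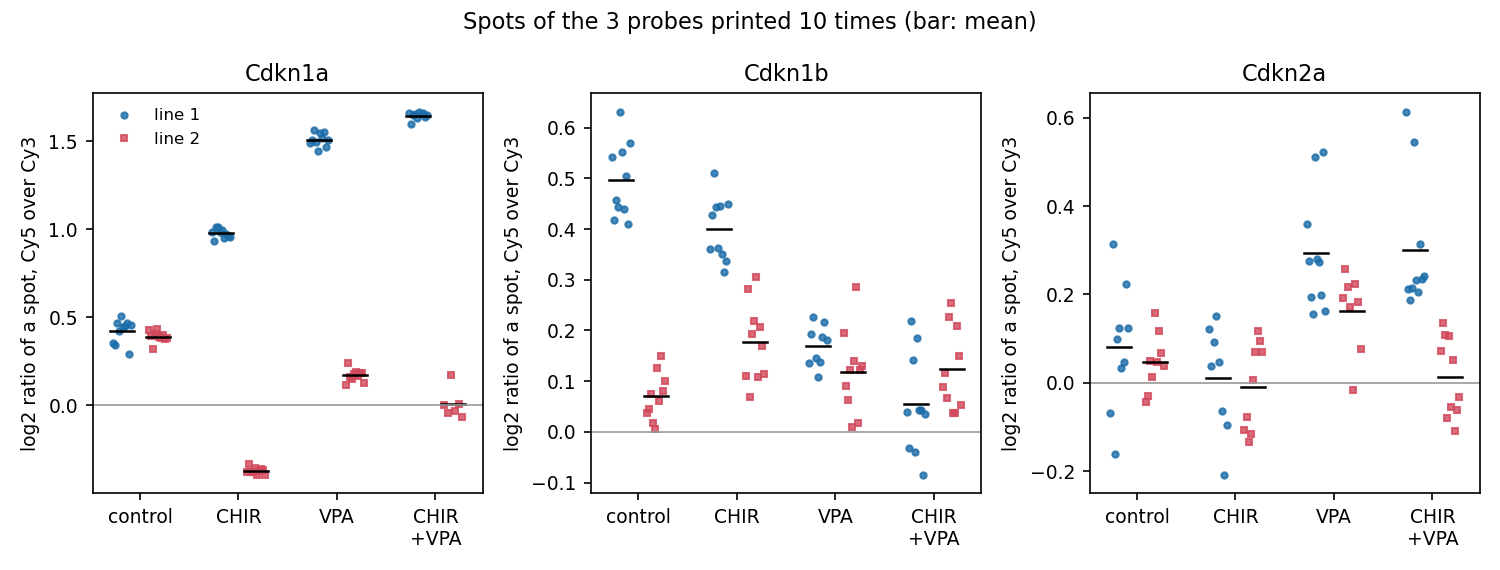
Log2 ratio of single spots (vertical axis) for the 3 probes printed 10 times, by condition (horizontal axis), with circles for line 1, squares for line 2 and a bar at the mean. The Cdkn1a spots of the lines overlap in control and lie apart in every treated condition, while the dimmer Cdkn1b and Cdkn2a spots scatter more.

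The level of Cdkn1a in untreated organoids also differed between the lines. Normalised Cy3 brightness, which read control material on 4 arrays of each line, averaged 759 in line 1 and 2329.6 in line 2, a 3.07-fold difference. In Cy5, line 2 exceeded line 1 by 1.66 on the log2 scale in control organoids, but by 0.28 with CHIR99021, 0.24 with VPA and -0.06 with both compounds. The lines thus differed by at most 0.28 in the 3 treated conditions. The Cy5 brightness of line 1 went from 963 in control to 1480.0 with CHIR99021, 2205 with VPA and 2478 with both. In line 2 it was 3035 in control, 1799 with CHIR99021, 2595 with VPA and 2378 with both. These differences between lines rest on 1 culture of each line per condition and were not tested.

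**Figure D4:**
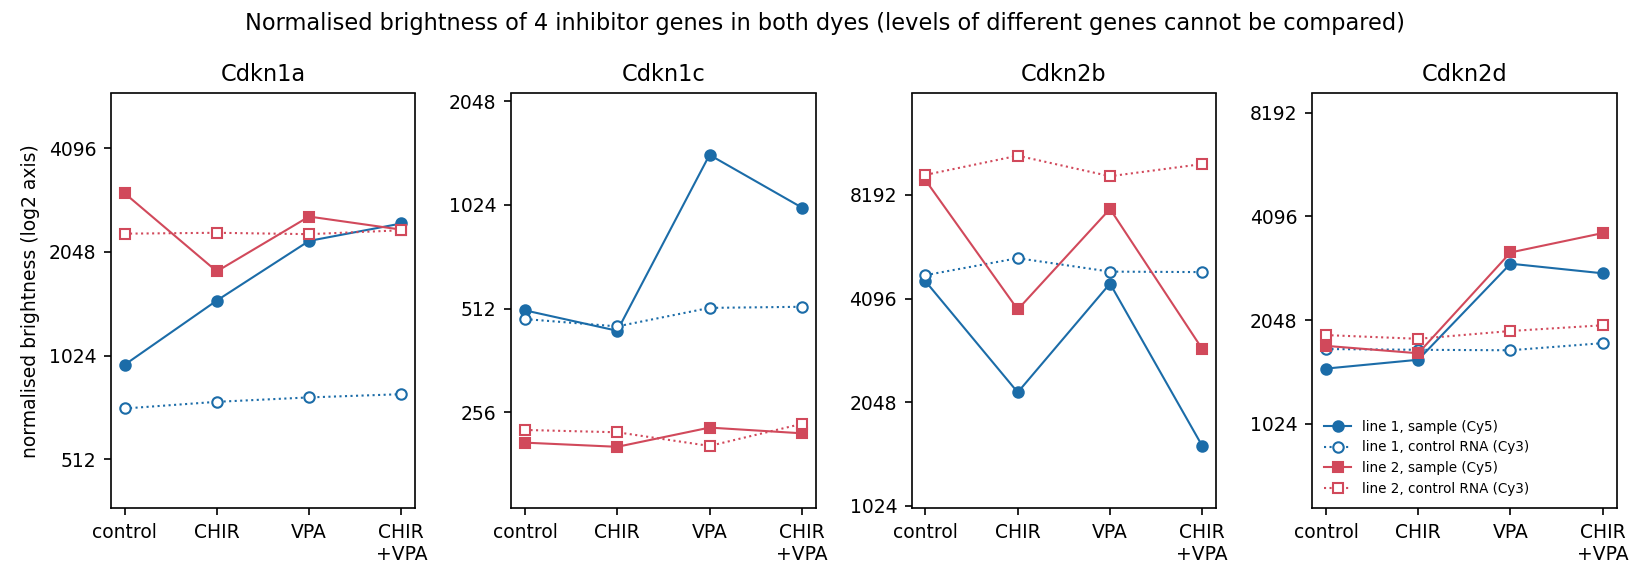
Normalised brightness (vertical axis, log2 scale spanning the same range of fold in each panel) of 4 genes by condition, with filled symbols for the sample in Cy5 and open symbols for control RNA in Cy3, circles for line 1 and squares for line 2. The control RNA of Cdkn1a was 3.07-fold brighter in line 2, and the treated samples of the lines lay close together.

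Cdkn1c, which is imprinted and acts in quiescent cells, was high in line 1 with VPA. Its log2 ratio was 0.08 in line 1 and -0.12 in line 2 in control, and -0.04 and -0.14 with CHIR99021. With VPA the ratios were 1.48 and 0.18, and with both compounds they were 0.96 and -0.09. Line 1 stood above its control by 1.39 with VPA and line 2 by 0.30. The mean change was 0.85 with VPA (SE 0.47, 95% interval -0.27 to 1.96, adjusted p = 0.317), -0.07 with CHIR99021 (SE 0.47, adjusted p = 0.979) and 0.45 with both compounds (SE 0.47, adjusted p = 0.587). In control RNA the gene was 2.20-fold brighter in line 1, at 491 against 223. In Cy5 the log2 difference of line 2 from line 1 was -1.28 in control and -2.63 with VPA. The summed Cy5 brightness of 8 mesenchymal markers, of which 4 were above background in control organoids, was 7674 to 10076 in control, 7492 to 9182 with VPA and 11227 to 13487 with both compounds. The part of these markers in the Cdkn1c values was not tested.

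Cdkn1b, whose product p27 is controlled to a large extent by protein breakdown, had 2 probes. The brighter probe, with 1 spot per array, read 0.29 in line 1 and 0.62 in line 2 in control, and 0.33 and 0.80 with CHIR99021. Under VPA alone it read -0.28 and 0.51, and under both compounds 0.14 and 0.87. The ratio of this probe was higher in line 2 than in line 1 in every condition. Its control RNA in Cy3 was 1.48-fold brighter in line 1, at 930 against 627. The changes were 0.11 with CHIR99021 (SE 0.34, adjusted p = 0.948), -0.34 with VPA (SE 0.34, adjusted p = 0.604) and 0.05 with both compounds (SE 0.34, adjusted p = 0.948). The dimmer probe, printed 10 times, read 0.50 and 0.07 in control, and 0.40 and 0.18 with CHIR99021. Under VPA alone it read 0.17 and 0.12, and under both compounds 0.06 and 0.12. Here the ratio of line 1 was above that of line 2 in 3 of the 4 conditions, so the probes disagreed on the order of the ratios. In Cy3 control RNA both probes were brighter in line 1, the dimmer one at 161 against 151. The changes of the dimmer probe were 0.01, -0.14 and -0.19 in a limma fit of all 25621 probes (SE 0.15 each, adjusted p = 0.994, 0.640 and 0.471).

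With each gene read by its brightest probe, the spread between the lines was wider in the CIP/KIP genes than in the INK4 genes. Pooled over the 4 conditions, the SD of the log2 ratio between lines was 0.888 for Cdkn1a, 0.596 for Cdkn1c and 0.431 for Cdkn1b, against a median of 0.128 over all genes tested. Those values stood at the 99.2, 97.8 and 95.3 percentile of all genes. The INK4 genes had SDs of 0.137 for Cdkn2c, 0.104 for Cdkn2b and 0.0878 for Cdkn2d, at the 54.6, 36.3 and 25.7 percentile. All 3 CIP/KIP genes stood at or above the 95.3 percentile, and the 3 INK4 genes tested stood between the 25.7 and 54.6 percentile. For Cdkn1b this rests on the brighter probe, with SDs of 0.238, 0.334, 0.559 and 0.514 in control, CHIR99021, VPA and both. The dimmer probe had SDs of 0.302, 0.157, 0.037 and 0.048 in the same order, so the place of Cdkn1b depends on the probe. Control arrays held material of the same line in both dyes, so the control SDs in this pool are no difference in response to treatment. Cdkn2b differed in level between the lines, with control RNA 1.97-fold brighter in line 2 (9845 against 4989), while its ratios stayed close.

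The counts of other pathway genes stand beside all genes, of which 1.12% passed with CHIR99021, 10.9% with VPA (6.58% higher, 4.27% lower) and 15.5% with both (8.43% higher, 7.09% lower). Of 18 cyclins, kinases and their regulators, 0 passed with CHIR99021, 1 fell with VPA and 2 rose with both compounds. Ccnb1, a mitotic cyclin, fell with VPA with a log2 change of -0.56 (adjusted p = 0.0345). Ccne1, which drives entry into S phase, rose with both compounds by 0.73 (adjusted p = 0.0397), as did Mnat1, a partner of CDK7, by 0.36 (adjusted p = 0.0473). These calls held in 9, 12 and 8 of 21 alternatives, with adjusted p up to 0.221, 0.193 and 0.457. The median change of the 18 was 0.15, -0.03 and 0.05 with CHIR99021, VPA and both, where the median of all genes was 0.01, -0.00038 and 0.01.

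Of 19 pocket proteins and E2F factors, 1 fell with CHIR99021, 1 rose with VPA, and 2 fell with both compounds. Rb1, the retinoblastoma gene, rose with VPA by 0.99 (adjusted p = 0.0154). Tfdp2, a partner of E2F factors, fell with a log2 change of -0.73 with CHIR99021 (adjusted p = 0.0289) and of -0.96 with both (adjusted p = 0.00187). Foxm1, a transcription factor of mitotic genes, fell with both (-0.47, adjusted p = 0.0444). The calls held in 16 of 21 alternatives for Rb1, in 11 and 20 for Tfdp2 and in 9 for Foxm1. The median of the 19 was 0.09, 0.05 and 0.09. Of 18 genes of inhibitor turnover and export, 0 passed with CHIR99021, 1 fell with VPA and 1 fell with both. These were Ddb1, a subunit of a ubiquitin ligase that acts on p21 (-0.52 with VPA, adjusted p = 0.0335), and Rnf123, a ubiquitin ligase for p27 (-0.41 with both, adjusted p = 0.033). The Ddb1 call held in 9 of 21 alternatives, and the Rnf123 call in 7 of 21, with a change of -0.50 to -0.099. The median of the 18 was 0.07, -0.20 and -0.01.

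Of 32 transcription factors that act on the inhibitor genes, 1 rose with CHIR99021, 1 rose and 1 fell with VPA, and 3 rose and 6 fell with both compounds. Id2, an inhibitor of E proteins, rose by 0.64, 0.52 and 1.06 with CHIR99021, VPA and both (adjusted p = 0.0478, 0.0261 and 0.00189). The Id2 calls held in 6, 10 and 20 of 21 alternatives, with adjusted p up to 0.558, 0.381 and 0.112. Trp53, whose protein activates Cdkn1a, rose by 0.68 with both (adjusted p = 0.008). Gfi1, a repressor needed in secretory cells, fell with both (-1.54, adjusted p = 0.00677), as did Klf5, a factor of crypt cells (-0.51, adjusted p = 0.0107). The calls held in 17 of 21 alternatives for Trp53, 18 for Gfi1 and 17 for Klf5. The median of the 32 was -0.03, -0.07 and -0.06.

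Of 21 Polycomb genes and other chromatin regulators of the Ink4 locus, which include the demethylase Kdm6b that opposes Polycomb, 0 passed with CHIR99021, 1 rose with VPA and 2 rose with both. Phc1, a subunit of Polycomb repressive complex 1, rose with VPA by 0.82 (adjusted p = 0.0181) and with both by 0.75 (adjusted p = 0.016). Suz12, a subunit of Polycomb repressive complex 2, rose with both by 0.55 (adjusted p = 0.0464). The calls held in 15 and 17 of 21 alternatives for Phc1 and in 9 for Suz12. The median of the 21 was 0.06, -0.10 and 0.0044.

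Of 19 proliferation markers, all 19 had positive values with CHIR99021, with a median of 0.28, and 0 passed. Over all genes, 9995 of 19254 were positive in that comparison. With VPA the median was -0.35 and 2 fell, and with both compounds it was -0.15 and 1 fell. Added to CHIR99021, VPA gave negative values in all 19, with a median of -0.45, and 5 passed as lower, beside 3.81% of all genes. Here 9933 of all 19254 genes were positive. The markers were read on the same arrays, so their signs are not independent. Tk1, a thymidine kinase of S phase, fell with a log2 change of -0.96 with VPA (adjusted p = 0.00736) and of -0.87 with both (adjusted p = 0.00659). The median of these markers was negative in both VPA conditions, where Cdkn2d was higher. It was positive with CHIR99021, where Cdkn2d had a change of 0.03. The part of these markers in the Cdkn2d result was not tested.

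The genes whose 8 log2 ratios were most like those of the changed inhibitors were sought among 3780 named genes that varied over the arrays. For Cdkn2b these were Unc93a (Pearson r = 0.992), Tfdp2 (r = 0.988) and Slc25a35 (r = 0.986), and 138 genes had an r above 0.9. Unc93a had ratios of -1.21 and -1.39 with CHIR99021 and -0.16 and -0.26 in control, in line 1 and line 2. For Cdkn2d they were Stk10 (r = 0.996), Ccdc92 (r = 0.995) and Wdr54 (r = 0.994), and 546 genes had an r above 0.9. With VPA, Ccdc92 had a log2 change of 3.04 and Stk10 of 1.47. Such changes come with the choice of these genes by their likeness to Cdkn2d on the same arrays, so no p-value is given. These correlations describe 8 arrays that share treatments and control material.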

How the data were processed

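RNA of 8 organoid samples was measured on 2-colour Agilent mouse arrays. Per the file headers, the deposited scanner files were made with Feature Extraction 10.5.1.1 and hold spot intensity in both dyes, a log10 ratio of Cy5 over Cy3, and flags. The deposited series table holds log2 values that equal the scanner log10 ratio converted to log2 over 19228 spots of each array (largest difference 5e-10), with column medians of 0.0039 and 0.0057 (control), 0.017 and 0.036 (CHIR99021), -0.028 and -0.024 (VPA alone), and -0.0080 and -0.0027 (combination). It holds no Cdkn2a spot. Each ratio is Cy5 over Cy3, as the labels give the dyes. The submitters' steps after scanning are not given in the sources used here.

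Of 45018 spots per array, 1639 are controls. Intensities were corrected with normexp (offset 50), leaving spots marked as non-uniform or outlying out of its model, and each array was then loess-normalised with a weight of 0 for control spots. Marked spots were left out and spots of a probe averaged. A gene was represented by its brightest probe and tested where both arrays of at least 1 group had it well above background in Cy5. That kept 19332 genes, of which 78 were dropped for a marked spot. limma 3.58.1 in R 4.3.3 fitted the group means of all 8 arrays (4 residual and 2.68 prior degrees of freedom), with Benjamini-Hochberg adjustment at 0.05. The procedure was also tried on simulated data with noise independent between arrays and an effect added in the CHIR99021 group only. The simulation did not include the correlation of same-line samples given next. Replicate numbers stand for organoid lines, so they pair the samples (correlation of same-line deviations 0.122 to 0.755 over 6 pairs of groups).

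Gene names come from RefSeq tables of GRCm38.p6. Coordinates in the array files are of another build and were not used. All 7 inhibitors and all their probes are named. From each other list, up to 4 genes with the smallest adjusted p against control are named, and for each changed inhibitor the 3 named genes of highest Pearson r among genes with an SD of at least 0.3. The members, lists and settings were chosen with earlier results of these data known. Alternatives varied background correction, normalisation, filter, probe choice, variance model, replicate block, control arrays, samples, channel and single arrays. One more, which kept marked spots, was chosen after seeing the data.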

Additional observations from a re-analysis of the deposited data

Results flagged for a closer look

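For Cdkn1a the lines went opposite ways against their own controls. With CHIR99021, line 1 gave 0.56 and line 2 gave -0.76. With VPA alone they gave 1.09 and -0.22, and under both compounds 1.23 and -0.38. The Cdkn1a values for CHIR99021 added to VPA were 0.14 and -0.16. For Cdkn1b they were -0.15 in line 1 and 0.24 in line 2 with both compounds, and -0.19 and 0.07 for VPA added to CHIR99021. For Cdkn2d they were 0.09 and -0.04 with CHIR99021, and -0.16 and 0.13 for CHIR99021 added to VPA. These differences between lines were not tested.

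Cdkn2a, which was outside the fit, had spots well above background in Cy5 on 3 arrays, where the control arrays had 0. There were 8 of 10 spots on the VPA array of line 1 and 7 of 10 on the array of line 1 with both compounds. On the VPA array of line 2 there were 2, both left out as marked spots.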

How the results depend on the processing

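Of 656 recomputed values for single inhibitors, 598 kept their direction and their side of the threshold, 16 lost a call, 2 gained one and 40 changed sign. The departure from additivity is counted there for Cdkn2b and Cdkn2d only. For Cdkn1a, Cdkn1b, Cdkn1c and Cdkn2c its sign was kept in 16, 17, 17 and 12 of 19 alternatives. The number of inhibitors that passed with CHIR99021 went from 1 to 0 with the background model fitted on all spots, in the Cy5 channel alone and with marked spots kept. For VPA added to CHIR99021 it went from 1 to 2 with the line as a replicate block and to 0 with only the compared groups fitted. For CHIR99021 added to VPA it went from 1 to 0 with only the compared groups fitted and in Cy5 alone. For both compounds it went from 2 to 1 in Cy5 alone, and it rose with the line as a replicate block, where Cdkn2c passed as well. Leaving out 1 array gave 0 to 1 for CHIR99021, for VPA, for VPA added to CHIR99021 and for CHIR99021 added to VPA, 2 to 2 for both compounds and 0 to 0 for the departure from additivity. The replicate block changed no other inhibitor call than those of Cdkn2b and Cdkn2c given above.

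Signs turned only for values that had not passed. With treated ratios set against 0, Cdkn1a gave 0.30 and Cdkn2d -0.12 with CHIR99021, and Cdkn1b gave 0.12 and Cdkn2c -0.0045 with VPA. In that setting the mean control ratio is not subtracted, and it was 0.41 for Cdkn1a and -0.15 for Cdkn2d. For Cdkn1b it was 0.46 and for Cdkn2c -0.12. For CHIR99021 added to VPA, Cdkn1a gave 0.018 with the scanner ratio, 0.023 with median centring and 0.043 in Cy5 alone, and Cdkn2d gave 0.065, 0.014 and 0.072. The Cdkn2d departure from additivity gave 0.046, 0.032 and 0.060 in the same order. With median centring, Cdkn1b gave 0.039 for VPA added to CHIR99021 and Cdkn2d gave -0.018 with CHIR99021. Cdkn1b gave -0.072 with both compounds as the mean of its probes. Apart from the values set against 0, the cause of these sign changes was not tested.

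With 1 array left out, Cdkn1a ranged from -0.78 to 0.57 with CHIR99021, -0.24 to 1.1 with VPA, -0.40 to 1.24 with both, -0.30 to 1.34 for VPA added to CHIR99021 and -0.83 to 0.81 for CHIR99021 added to VPA. In the same order Cdkn1b ranged from -0.13 to 0.35, -0.73 to 0.056, -0.31 to 0.41, -0.42 to 0.30 and -0.0071 to 0.78. Cdkn1c ranged from -0.18 to 0.031 with CHIR99021, -0.072 to 0.98 with both and -1.04 to 0.26 for CHIR99021 added to VPA. Cdkn2c ranged from -0.024 to 0.25 with VPA. Cdkn2d ranged from -0.014 to 0.071 with CHIR99021, -0.12 to 0.093 for CHIR99021 added to VPA and -0.15 to 0.065 for the departure from additivity.

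Counts of the other lists moved more. With both compounds, 0 to 8 transcription factors passed as higher and 0 to 10 as lower. With 2 arrays a group, 1 array decided several calls, and signal near background left Cdkn2a without a value.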
